A study of Mus musculus with 18 samples.

Results

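Microglia and other macrophages were a rare population in the embryonic mouse forebrain, and 278 of 201952 filtered nuclei (0.138%) were assigned to them. A nucleus was a member when at least 2 of 7 genes of tissue macrophages (Csf1r, Cx3cr1, Mrc1, Ptprc, F13a1, C1qa and C1qb) and none of 4 genes of young neurons (Neurod2, Neurod6, Dlx6os1 and Gad2) were detected, with detection meaning a count of at least 1 UMI, the tag that counts 1 captured RNA molecule. Filtered nuclei held 800 to 6000 UMIs, 300 to 3000 genes and at most 1% mitochondrial UMIs. The members were thus chosen by the measured counts of these 11 genes. Their levels are a description and carry no test, and the same holds for every comparison of members with the other nuclei.

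The forebrains came from E14 embryos of the C57BL/6 Myt1l S710fsX line, which carries a frameshift in the gene of the neuronal transcription factor MYT1L. Wild type (WT), heterozygous (Het) and homozygous mutant (KO) embryos were compared, 3 of each, drawn from several litters of Het crosses, with the mutation present in every cell from conception and with no Cre or transgene. Meninges were taken off before the tissue was frozen. Single-nucleus RNA was read with combinatorial barcoding, each embryo in 2 runs, which gave 18 libraries, and the embryo was the replicate (n = 3 per genotype). Run 1 contributed 67 members and run 2 contributed 211. In run 1 the genotype tag of the labels reads WT for all 9 libraries, against the titles, from which the groups were taken. Over all filtered nuclei of both runs, Myt1l stood at 1234, 1259 and 1251 CPM (UMI counts scaled to a total of 1000000) in WT, at 1264, 1379 and 1428 CPM in Het and at 1584, 1458 and 1474 CPM in KO embryos. The same order of the genotype means was seen in run 1 (1362, 1474 and 1615 CPM) and in run 2 (1216, 1311 and 1469 CPM). Whether the mutant RNA is retained was not tested, so the level of Myt1l RNA does not by itself check the genotype. Of the 9 embryos only WT 3 had Xist above 100 CPM, although the study describes mixed sexes.

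Microglia are the resident macrophages of the brain parenchyma. They descend from yolk sac precursors that enter the brain before birth, divide there, depend on the receptor CSF1R and its ligands, and prune, engulf and signal to neurons and their progenitors through receptors such as CX3CR1 and P2RY12. Related macrophages at the borders of the brain, in the meninges, the choroid plexus and around vessels, carry scavenger receptors such as the mannose receptor MRC1, STAB1 and LYVE1. Both take their identity from the transcription factor PU.1, encoded by Spi1.

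Promoters of genes that lead the members are shown first, since PU.1 binds purine-rich sites around GAGGAA. Among the 15 genes outside the rule with the largest fold in members and the 7 rule markers, 19 had a promoter in the RefSeq table (GRCm38.p6, from 250 bases before to 50 bases after the start of the gene), and the 8 letters GAGGAAGT were found on either strand in 4 of them (21.1%). Over all 27025 genes of the table, 3.69% held these letters. Among genes of the leukocyte signalling list 6 of 26 held them, and Apbb1ip, Inpp5d and Cyth4 are counted both here and among the 4. None of 10 listed phagocyte transcription factors, 12 microglia core genes and 6 pan-neuronal genes in the table had them. The 4 promoters follow, 5′ to 3′ on the strand of the gene, with the motif or its reverse complement in capitals. A match is a stretch of letters and not a measured binding site.
Apbb1ip, an adaptor that activates integrins, plus strand, chr2:22774077-22774376: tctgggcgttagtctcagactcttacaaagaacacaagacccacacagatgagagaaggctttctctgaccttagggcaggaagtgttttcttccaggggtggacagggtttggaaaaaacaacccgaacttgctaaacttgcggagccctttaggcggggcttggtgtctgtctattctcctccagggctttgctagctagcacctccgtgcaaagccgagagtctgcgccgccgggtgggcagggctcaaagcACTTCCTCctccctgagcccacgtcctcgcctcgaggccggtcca
Inpp5d, the inositol phosphatase SHIP1, plus strand, chr1:87620062-87620361: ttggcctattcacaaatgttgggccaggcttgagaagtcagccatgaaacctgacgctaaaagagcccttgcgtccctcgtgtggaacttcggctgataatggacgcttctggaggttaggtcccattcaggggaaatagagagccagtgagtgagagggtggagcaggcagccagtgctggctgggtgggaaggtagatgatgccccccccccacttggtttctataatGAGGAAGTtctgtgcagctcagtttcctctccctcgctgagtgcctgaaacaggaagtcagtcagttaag
Cyth4, an exchange factor of ARF GTPases, plus strand, chr15:78596797-78597096: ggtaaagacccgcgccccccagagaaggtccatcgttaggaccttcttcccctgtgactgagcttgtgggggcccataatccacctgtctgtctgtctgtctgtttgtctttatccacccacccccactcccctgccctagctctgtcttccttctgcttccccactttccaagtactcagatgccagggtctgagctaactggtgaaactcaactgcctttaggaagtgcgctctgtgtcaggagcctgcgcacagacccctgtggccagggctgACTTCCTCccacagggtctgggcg
F13a1, the A subunit of coagulation factor XIII and 1 of the rule markers, minus strand, chr13:37049164-37049463: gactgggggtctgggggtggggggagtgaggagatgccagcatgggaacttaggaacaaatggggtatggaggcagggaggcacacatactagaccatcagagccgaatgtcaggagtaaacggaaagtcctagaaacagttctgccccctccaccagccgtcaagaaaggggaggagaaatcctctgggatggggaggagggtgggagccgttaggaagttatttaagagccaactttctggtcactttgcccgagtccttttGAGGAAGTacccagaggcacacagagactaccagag

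Members carried a median of 2161 UMIs (829 to 5725) and 1526.5 genes, against 2562 UMIs and 1556 genes over all filtered nuclei. Cx3cr1, the fractalkine receptor, was detected in 247 members (88.8%) and in 0.661% of the other nuclei. Csf1r, the receptor for the macrophage growth factors CSF1 and IL34, was detected in 241 members (86.7%) and 0.162% of the others. For Ptprc, the leukocyte phosphatase CD45, the shares were 68.7% and 0.276%, and for Mrc1 they were 40.6% and 0.247%. The complement genes C1qa and C1qb, which tag synapses and debris for uptake, were found in 27.3% and 33.8% of members and in 0.0347% and 0.0367% of the other nuclei. F13a1 was the least specific marker, with 27 members (9.71%) and 1420 other nuclei (0.704%), so that 1.87% of the nuclei that detected it were members. Of the members 66 had 2 markers, 74 had 3, 72 had 4, 49 had 5 and 17 had 6.

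**Figure D1:**
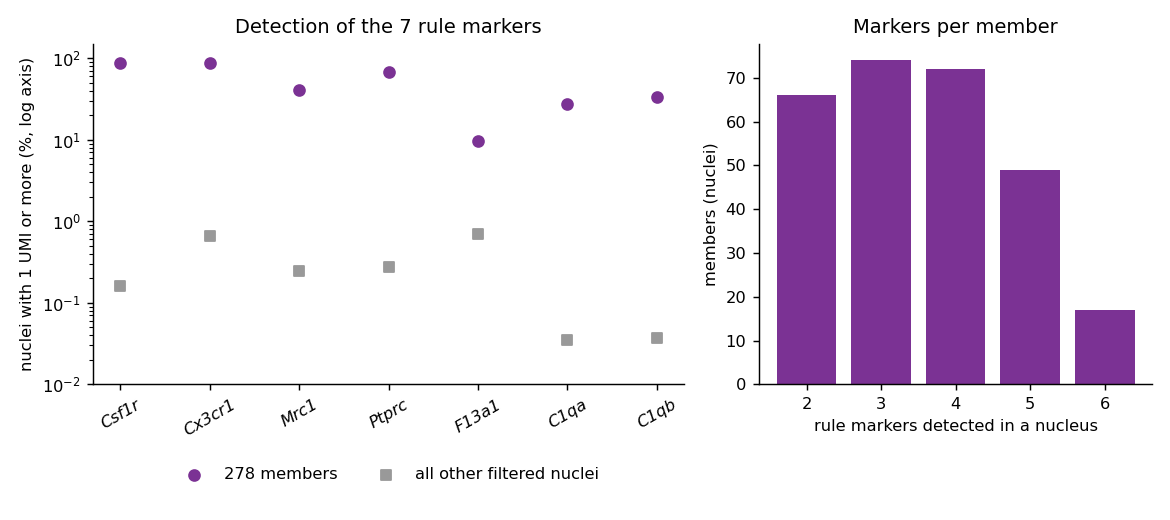
Left, the share of nuclei with 1 UMI or more of each rule marker (percent, log axis) in the 278 members (circles) and in all other filtered nuclei (squares). Right, the number of members by how many of the 7 markers they carried, from 66 members with 2 markers to 17 with 6.

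The label was compared with genes that the rule did not use. Their list was written with earlier results of these data known, so this is a description and not an independent check. Of 30 listed leukocyte signalling genes, members detected a median of 16, and 264 members detected at least 2. Just inside the threshold, the 66 members with exactly 2 markers had a median of 11.5 of these genes at a median of 1680 UMIs, and 80.3% had at least 2. Just outside it, 1322 nuclei with 1 marker and no neuronal gene had a median of 0 and 5.14% had at least 2, at a median of 2984 UMIs. A further 92 nuclei carried 2 or more markers together with a neuronal gene and were left out, and 66.3% of them had at least 2 of the signalling genes, at a median of 3325 UMIs. Thus 9 members had none of the 30 genes, while part of the excluded nuclei did carry these genes. No member was among the nuclei with the highest doublet scores, which made up 3.18% of filtered nuclei. Of the 92 nuclei with markers and a neuronal gene only 2 (2.17%) were among them, so this score does not decide whether members are doublets. In all, 6 member barcodes also occurred in another library, and no barcode was held by more than 1 member.

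Apart from the rule genes, the 15 genes with the largest fold in members were immune genes. Fcrls, an Fc receptor-like gene that marks mouse microglia, had a mean of 1021 ± 168 CPM (SD, n = 9 embryos) in members and 0.487 ± 0.176 CPM in the other nuclei, a 688-fold difference with 1 CPM added to both. Ly86, a partner of the Toll-like receptor homologue CD180, followed with 1271 ± 190 CPM and 621-fold. Stab1, the scavenger receptor stabilin-1, was 495-fold, Apbb1ip 474-fold and Siglech, a sialic acid-binding lectin of microglia, 442-fold higher. Among the others were Inpp5d, Fyb, Myo1f, Cd180, Cyth4, Lcp2, Mpeg1, Laptm5 and Cd84, each between 286-fold and 430-fold and each higher in members in 9 of 9 embryos. Some levels varied widely between embryos, such as Mpeg1, a pore-forming protein of phagosomes, from 61.0 to 728 CPM, whereas Fyb, an adaptor of integrin signalling, stayed between 991 and 1378 CPM.

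Over the 19634 genes with a UMI in members, 9.03% were higher in members in 9 of 9 embryos and 24.9% were over 2-fold higher, and the lists are read against these shares. The share higher in 9 of 9 embryos depended on the level. It was larger, 1154 of 2536, among genes that averaged 100 CPM or more in members. Among 15 phagocyte transcription factors, 12 were higher in 9 of 9 embryos, with a list median of 4.32 on the log2 scale. Spi1 itself stood at 188 ± 67.1 CPM against 0.306 CPM. Runx1, a regulator of blood formation in the yolk sac, stood at 828 ± 199 CPM against 2.35 CPM, and Fli1, an ETS factor, at 972 ± 230 CPM against 3.65 CPM. The factors Cebpa and Cebpb were found in 6 and 5 members.

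Among 18 microglia core genes, 16 were higher in 9 of 9 embryos and the median log2 difference was 6.39. P2ry12, the ADP receptor that steers microglial processes, was at 694 ± 249 CPM in 188 members. Tmem119, a marker of mature microglia, was found in only 36 members (58.8 ± 35.02 CPM), and Sall1, a transcription factor of microglial identity, in 101 members (240 ± 68.7 CPM). The rate of detection thus differed widely from gene to gene.

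Of 16 border macrophage genes, 5 were higher in 9 of 9 embryos, Stab1, Dab2, Colec12, Tgfbi and Hpgd. Dab2, an endocytic adaptor, was detected in 119 members and Colec12, a scavenger receptor, in 41. Lyve1, the hyaluronan receptor of perivascular and meningeal macrophages, was detected in 14 members, Ms4a7 in 22, and Cd163 and Pf4 in 1 each. No UMI of Cbr2, Ccl24 or Cd209f was seen in 278 members, which allows a share of up to 1.08% of nuclei with a UMI and covers counting error only. Of 10 monocyte genes 0 were higher in 9 of 9 embryos, beside 9.03% of all genes with a UMI in members. Ccr2 had counts in 1 nucleus and Ly6c2 in none.

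The signalling machinery of leukocytes was the list with the highest median, 6.62 on the log2 scale, and 27 of its 30 genes were higher in 9 of 9 embryos. Examples were Inpp5d (1380 ± 142 CPM against 2.21), Fyb (1244 ± 123 against 2.34) and the Src family kinase Lyn (1224 ± 203 against 3.54). Of 18 cytokine, Toll-like and Fc receptors 15 were higher in 9 of 9 embryos, led by Tgfbr1 (1495 ± 317 CPM) and Tgfbr2 (385 ± 83.1 CPM), both receptors for TGF-β, on which microglia depend. Of 20 genes of complement, lysosome and clearance 16 were higher in 9 of 9 embryos, among them Ctsb and Lgmn, lysosomal proteases, at 1541 ± 491 and 1417 ± 212 CPM, and Mertk, which recognises dying cells, at 1146 ± 228 CPM.

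Members carried RNA of dividing cells. The sum over 16 proliferation genes was 3757 ± 1143 CPM in members and 1760 CPM in the other nuclei, 2.13-fold, and higher in 9 of 9 embryos. Mki67, the Ki-67 antigen, was detected in 115 members and was at 723 ± 328 CPM against 284 CPM. Smc4, a condensin subunit, was at 460 ± 115 against 206 CPM. Of the 16 genes 8 were higher in 9 of 9 embryos, whereas Aspm was higher in 4 of 9 embryos and Cenpf, a kinetochore protein, in 6 of 9. The share over all genes with a UMI in members was 9.03%, but most of the 16 genes averaged over 100 CPM in members. At that level 1154 of 2536 genes were higher in 9 of 9 embryos, so the 8 genes are not read as an excess. At least 3 of the 16 genes were detected in 109 members (39.2%) and none in 86. Members with at least 3 were 9 of 18, 12 of 40 and 15 of 25 in the WT embryos, 7 of 38, 16 of 29 and 15 of 39 in the Het embryos and 12 of 24, 8 of 30 and 15 of 35 in the KO embryos, so the shares of the genotypes overlapped and the embryos of 1 genotype spread widely.

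RNA of other cell types was also measured in members. For lymphocytes, mast cells and granulocytes 14 of 16 listed genes had no UMI in members and 0 were higher in 9 of 9 embryos. Erythroid genes summed to 5.11 CPM. The 12 endothelial genes summed to a mean of 148 CPM in members and 25.6 CPM in the other nuclei, 5.76-fold, and higher in 9 of 9 embryos. In members they summed to 42.1 to 99.2 CPM in 8 embryos and to 770 CPM in KO 3, where 57.9% of the counts came from 1 nucleus, and 3 members also met a rule of at least 2 vascular markers. The 12 mural and fibroblast genes summed to 28.6 CPM in members and 26.1 CPM in the others, and the sum was higher in members in 2 of 9 embryos. The 10 pan-neuronal genes were each lower in members in 9 of 9 embryos, as were 9.91% of the genes with a UMI in members. They still summed to 1295 ± 687 CPM against 7033 CPM in the other nuclei, and members had 554, 170, 407 and 73.8 CPM of listed excitatory, inhibitory, radial glial and oligodendrocyte progenitor genes. Myt1l was detected in 47 members (16.9%), at 140 ± 63.3 CPM against 1372 CPM.

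**Figure D2:**
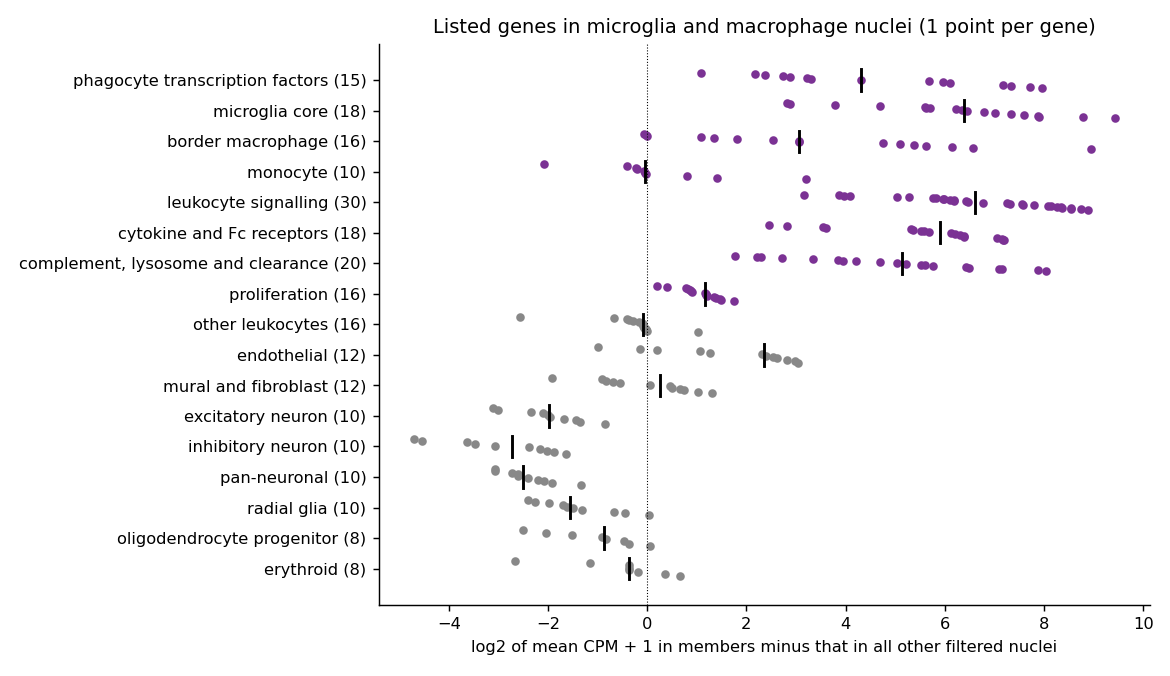
Difference between members and all other filtered nuclei for each listed gene (log2 of mean CPM + 1 over 9 embryos, 1 point per gene), by list with the number of genes, and a bar at the list median. Leukocyte signalling (median 6.62) and microglia core genes (6.39) lie furthest to the right, monocyte and other leukocyte genes lie near 0, and neuronal lists lie to the left.

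Members differed among themselves in Mrc1, F13a1 and Cx3cr1. Cx3cr1 without Mrc1 or F13a1 was seen in 139 members, Cx3cr1 together with Mrc1 or F13a1 in 108, Mrc1 or F13a1 without Cx3cr1 in 16, and none of the 3 in 15. Their median depths were 2086, 2362, 2053 and 1409 UMIs. The 16 nuclei without Cx3cr1 stood apart in other genes, at a depth close to that of the 139. P2ry12 was detected in 3 of the 16 (18.8%) and in 95 of the 139 (68.3%), and Fcrls in 6 (37.5%) and 114 (82.0%). Of the 18 microglia core genes, 16 were detected in a smaller and 2 in a larger share of the 16 nuclei than of the 139. The 16 border macrophage genes were mixed, with 7 in a larger share, 4 in a smaller share and 5 in neither. Colec12 was detected in 7 of the 16 (43.8%) against 12 of the 139 (8.63%) and Lyve1 in 4 against 0, whereas Hpgd was detected in 0 against 20, Tgfbi in 0 against 12 and Stab1 in 9 (56.2%) against 84 (60.4%). Summed over nuclei, the border macrophage list was at 5838 CPM in the 16, 3279 CPM in the 108 and 1146 CPM in the 139, and the microglia core list was at 3234, 10452 and 10127 CPM. The leukocyte signalling list was at 9170 CPM in the 16 and 17106 and 16301 CPM in the other two, and the pan-neuronal list at 3550, 1031 and 1256 CPM. These nuclei were spread over 7 embryos, with 6 in Het 1 and 4 in KO 1, too few per embryo for a test, so these values are given as a description.

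Nuclei with Mrc1 or F13a1, with or without Cx3cr1 (124 nuclei, median 2283 UMIs), were compared with the 139 nuclei with Cx3cr1 alone, both summed per embryo, with the embryo as a block. Of 1568 genes tested, 5 (0.319%) were called, all higher in the nuclei with Mrc1 or F13a1, and 113 (7.21%) had an unadjusted p under 0.05. The count filter asked for 285 CPM in at least 2 of the 18 sums, and of the 5 genes Slc9a9 alone met it within each kind of nucleus. Gab3, Snx6, Rapgef6 and Sgcz met it only through the nuclei with Mrc1 or F13a1, so their values are a description, their count supports nothing and no p is given. Slc9a9, a sodium-proton exchanger of endosomes (chr9:94669909-95230445, plus strand), ranged from 1451 to 2657 CPM (median 2108) in nuclei with Mrc1 or F13a1 and from 713 to 1694 CPM (median 1239) in those with Cx3cr1 alone. It was higher in 9 of 9 embryos, although the ranges overlapped between embryos, with a log2 fold change of 0.83 ± 0.14 (SE, edgeR adjusted p = 0.0234). Gab3, an adaptor downstream of CSF1R (chrX:74966843-75085458, minus strand), had medians of 285 and 67.0 CPM and was higher in 9 of 9 embryos, by a log2 of 1.77 ± 0.34.

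Snx6, a sorting nexin of the retromer (chr12:54746349-54795703, minus strand), had medians of 376 and 168 CPM and was higher in 9 of 9 embryos, with a log2 fold change of 1.16 ± 0.22. Rapgef6, an exchange factor of RAP GTPases, had medians of 520 and 229 CPM and was higher in 8 of 9 embryos, with a log2 fold change of 1.13 ± 0.23. Sgcz, the zeta-sarcoglycan (chr8:37522298-38661508, minus strand), was at 0 to 1451 CPM against 0 to 53.8 CPM and was detected in 15 members, with 47.1% of its counts from 1 nucleus. All positions are on GRCm38, and of these genes Slc9a9, Sgcz and Gab3 overlap short or predicted genes of the annotation. The calls depended on single embryos and settings: 0 genes were called without WT 2, without Het 2, without KO 2, in run 2 alone or without upper limits on depth, and 18 were called among members with at least 3 markers. The log2 fold change of Slc9a9 was 0.84, 0.84 and 0.80 without WT 2, Het 2 and KO 2, with edgeR adjusted p of 0.0664, 0.0608 and 0.0611. DESeq2 called 5 genes, of which only 2 were among the 5 of edgeR, Slc9a9 (DESeq2 adjusted p = 1.32e-05) included. For Gab3, Snx6, Rapgef6 and Sgcz no DESeq2 outcome is read, because of the count filter. Without the block for the embryo 689 genes met the count filter and 7 were called, Slc9a9 among them. Gab3, Snx6, Rapgef6 and Sgcz did not meet the filter in that setting and were not tested.

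Of the listed border macrophage genes 4 entered this comparison and 0 were called. Stab1 had medians of 1776 and 644 CPM and was higher in 8 of 9 embryos (log2 fold change 1.11 ± 0.26, edgeR adjusted p = 0.0726). Dab2 had medians of 592 and 222 CPM and was higher in 7 of 9 embryos (1.62 ± 0.39, edgeR adjusted p = 0.0912). Stab1 was called by DESeq2 (1.11, DESeq2 adjusted p = 0.0446), and Stab1 and Dab2 were called without the block for the embryo (edgeR adjusted p = 0.0157 and 0.0197). Both were called when at least 3 markers were asked of a member, with edgeR adjusted p of 9.12e-04 and 1.54e-04. Colec12 had medians of 207 and 67.0 CPM and was higher in 6 of 9 embryos. Lyve1 had counts in 14 nuclei with Mrc1 or F13a1, in 5 of 9 embryos, and was at 0 CPM in every embryo in the nuclei with Cx3cr1 alone. Since Colec12 and Lyve1 met the count filter only through the nuclei with Mrc1 or F13a1, their values are a description and no test is given.

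Listed microglia core genes, by contrast, gave small values in both directions. Of 10 tested, 3 were higher and 7 lower in the nuclei with Mrc1 or F13a1, with a median of -0.10, and 0 were called. Fcrls, Siglech and Lrmda differed by 0.07 ± 0.17, 0.15 ± 0.18 and 0.10 ± 0.16 on the log2 scale. P2ry12, Trem2, Entpd1, Itgam and Tgfbr1 differed by -0.10 ± 0.25, -0.08 ± 0.23, -0.10 ± 0.26, -0.18 ± 0.32 and -0.41 ± 0.27. Sall1 was lower in 6 of 9 embryos (-0.70 ± 0.28, edgeR adjusted p = 0.565).

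**Figure D3:**
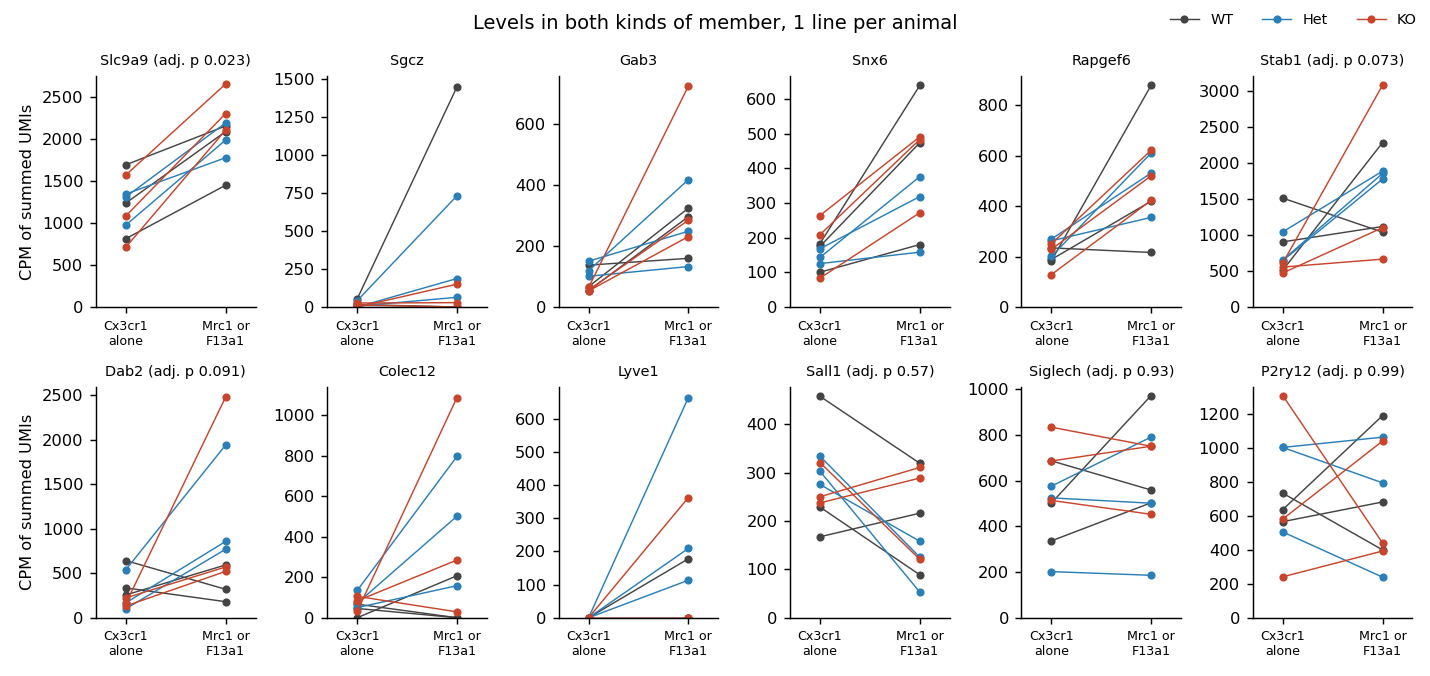
CPM of summed UMIs in nuclei with Cx3cr1 alone and in nuclei with Mrc1 or F13a1, 1 line per embryo (WT, Het and KO in grey, blue and red), with the edgeR adjusted p above the panels of genes that met the count filter in each kind of nucleus. Lines rise in 9 of 9 embryos for Slc9a9, Gab3 and Snx6, the Sgcz panel rests on few embryos, and lines cross for P2ry12.

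The number of microglia and macrophage nuclei was compared between genotypes over embryos. Members made up 0.0763%, 0.151% and 0.121% of filtered nuclei in the WT embryos (18, 40 and 25 nuclei), 0.153%, 0.153% and 0.195% in the Het embryos (38, 29 and 39 nuclei) and 0.157%, 0.120% and 0.129% in the KO embryos (24, 30 and 35 nuclei). The Het embryos all lay above the WT embryos, by the narrow gap between 0.151% and 0.153%, and the KO embryos overlapped with WT. Means were 0.116 ± 0.0374% (SD, n = 3), 0.167 ± 0.0243% and 0.135 ± 0.0193%. Het exceeded WT by 0.0513 percentage points (exact permutation test, two-sided, p = 0.1, the smallest that 3 against 3 embryos can give), and KO exceeded WT by 0.0193 points (exact permutation p = 0.5). The exact 95% binomial intervals of single embryos were wide, from 0.0452 to 0.121% in WT 1 and from 0.139 to 0.267% in Het 3, and cover counting error only.

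The runs gave different pictures of the share. Run 1 held few members, 5, 5 and 4 in the WT, 8, 10 and 14 in the Het and 11, 7 and 3 in the KO embryos. In run 1 the Het embryos exceeded WT by 0.113 points without overlap (exact permutation p = 0.1), and in run 2 by 0.0342 points with overlap (exact permutation p = 0.4). For KO the differences were 0.0580 points in run 1 (exact permutation p = 0.7) and 0.00690 points in run 2 (exact permutation p = 1). Without WT 1, the embryo with the lowest share, the difference from WT was 0.0314 points for Het and -0.000532 points for KO. The Het and WT embryos overlapped with a limit of 0.9 on the ratio of log(genes) to log(UMIs) and with at least 3 markers (exact permutation p = 0.2 each), as they did without upper limits on depth and when nuclei with neuronal genes were not left out (exact permutation p = 0.3 each). With every nucleus thinned to 800 UMIs in 1 random draw, members numbered 232, of which 209 were members in the main setting. Both Het and KO then lay above WT without overlap, by 0.0468 and 0.0298 points (exact permutation p = 0.1 each). Fewer nuclei of this kind recovered and fewer markers detected per nucleus cannot be told apart in these shares. The share of nuclei with vascular markers, another non-neural population, was 0.144%, 0.0716% and 0.140% in WT and 0.214%, 0.180% and 0.185% in Het embryos. In KO embryos it was 0.503%, 0.0996% and 0.137%. All Het embryos thus lay above all WT embryos in this share too, and its part in the result was not tested.

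The make-up of the members is given without a test, since Mrc1, F13a1 and Cx3cr1 belong to the rule. Mrc1 or F13a1 was detected in 27.8%, 35% and 44.0% of members in the WT embryos, in 47.4%, 55.2% and 48.7% in the Het embryos and in 54.2%, 46.7% and 40.0% in the KO embryos. All Het embryos lay above all WT embryos (difference 14.8 points), and KO overlapped with WT (11.4 points). The runs differed in direction for Het, with -8.93 points in run 1 and 23.8 points in run 2, and for KO, with -3.39 and 14.03 points. The values of run 1 rest on 3 to 14 members per embryo. With at least 3 markers the difference was 4.13 points for Het and 3.61 points for KO. F13a1 was detected in 0, 2 and 1 members of the WT embryos, 9, 4 and 5 of the Het embryos and 6, 0 and 0 of the KO embryos, and its level followed, with 1152 CPM in Het 1 and 1231 CPM in KO 1. The narrower type with Mrc1 or F13a1 and no Cx3cr1 made up 3.52 ± 3.06% of WT, 7.27 ± 7.39% of Het and 6.67 ± 8.82% of KO members (SD, n = 3). Thinning every nucleus to 800 UMIs, in 1 random draw, also took away counts of Cx3cr1 and of the neuronal genes. The type then numbered 21 nuclei, against 16 in the main setting. It made up 3.37 ± 3.33% of WT, 11.8 ± 2.92% of Het and 12.9 ± 13.7% of KO members. In that setting all Het embryos lay above all WT embryos, and KO overlapped with WT.

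**Figure D4:**
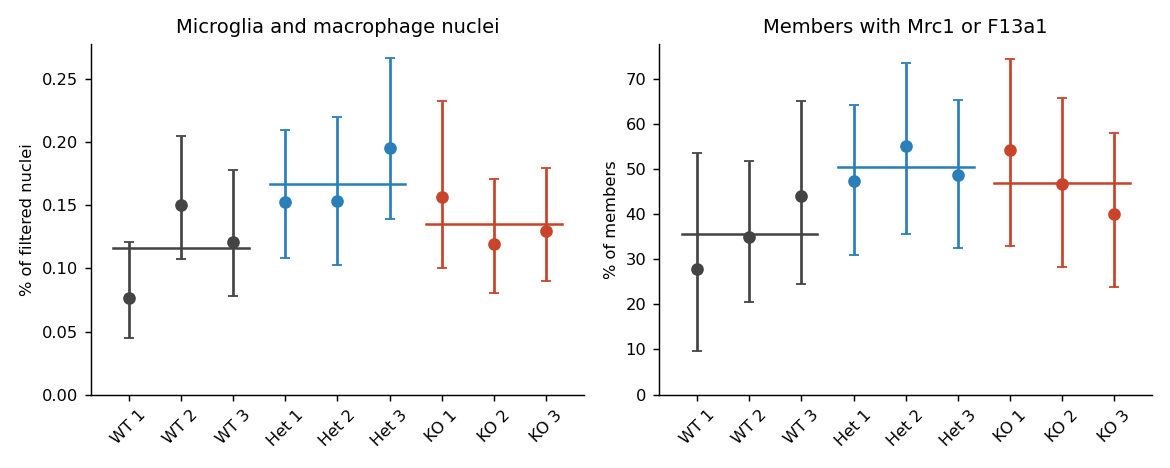
Share of filtered nuclei that were members (left, percent) and share of members with Mrc1 or F13a1 detected (right, percent), 1 point per embryo with its exact 95% binomial interval, and lines at the genotype means. The 3 Het embryos lie above the highest WT embryo in both panels, and the KO embryos overlap with WT.

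Genes were compared between genotypes on the UMIs of the members summed per embryo (40314 to 109353 UMIs). None of 2351 genes was called in KO or in Het embryos (0%), by edgeR's quasi-likelihood test with an adjusted p under 0.05 and a log2 change beyond 0.2. At an unadjusted p under 0.05 there were 109 genes for KO (4.64%, 41 higher and 68 lower) and 75 for Het (3.19%). DESeq2 called 1 gene for KO, Cacna2d1, and 0 for Het. The 2351 genes include the rule markers, with Ptprc in KO and Mrc1 in Het among those under 0.05, and their values are not read as tests. Both comparisons share the WT embryos. The count filter took all embryos together, so a gene could meet it through the genotypes where it is high. No p is given for named genes that did not meet it within each of the genotypes compared. The microglia core, leukocyte signalling and complement, lysosome and clearance lists had 13, 25 and 13 genes tested and 0 called in each comparison, with list medians between -0.09 and 0.02 on the log2 scale and medians of all genes tested of -0.00 in KO and 0.00 in Het. The border macrophage list had 3 genes tested and 0 called, with medians of 0.87 in KO (2 higher) and 1.03 in Het (3 higher). Colec12, 1 of the 3, met the count filter in no WT embryo. The pan-neuronal list had 4 tested and 0 called, with medians of -1.61 in KO (4 lower) and -0.45 in Het (3 lower).

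Mertk, the receptor for phosphatidylserine bridges on dying cells, was among the 3 genes with the smallest p among those higher in KO. It stood at 769, 887 and 942 CPM in WT, at 1175, 1235 and 1222 CPM in Het and at 1266, 1404 and 1414 CPM in KO members. Neither mutant genotype overlapped with WT, yet the change of KO from WT, 0.62 ± 0.18 on the log2 scale, did not pass (edgeR adjusted p = 0.780). Abca9, a lipid transporter of macrophages, stood at 248, 238 and 182 CPM in WT and at 519, 611 and 420 CPM in KO members (1.18 ± 0.29, edgeR adjusted p = 0.780). Xrcc4, a DNA end-joining factor, stood at 149, 77.7 and 99.2 CPM in WT and at 259, 266 and 274 CPM in KO (1.39 ± 0.37). The WT embryos alone did not meet the count filter for Xrcc4, so no p is given. For Abca9 and Xrcc4 WT and KO embryos did not overlap. Genes named for the smallest p, Mertk included, tend to separate in this way, and the share of all 2351 genes that do was not counted. Without upper limits on depth the log2 differences of Mertk and Xrcc4 were 0.22 and 0.76.

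Of the 68 genes lower in KO members at an unadjusted p under 0.05, the 3 named by the smallest p at 50 CPM or more are genes of neurons. Whether the other genes share this was not tested. Cacna2d1, a calcium channel subunit, stood at 298, 485 and 794 CPM in WT, at 337, 165 and 67.2 CPM in Het and at 107, 17.3 and 50.9 CPM in KO members. The log2 difference of KO from WT was -3.27 ± 0.60. No KO embryo met the count filter for Cacna2d1, which entered through WT and Het embryos, so its values are a description and no p is given. Ntrk3, a neurotrophin receptor, differed by -2.04 ± 0.51 and Dlg2, a synaptic scaffold, by -2.25 ± 0.57. For these genes too no KO embryo met the count filter, and no p is given. Without upper limits on depth the 3 log2 differences were -1.24 for Cacna2d1, -0.09 for Ntrk3 and -1.19 for Dlg2. Cacna2d1 was detected in 45 members, and 21.2% of its counts came from 1 nucleus. Beside these genes, the summed pan-neuronal list stood at 1253, 2023 and 1466 CPM in WT members. It stood at 2591, 1424 and 668 CPM in Het and at 1052, 416 and 758 CPM in KO members. This sum was thus lower in each KO embryo than in each WT embryo. However, 1 nucleus gave 53.5% of these counts in WT 1 and 54.9% in WT 3. The largest share from 1 nucleus was 28.3% in WT 2 and at most 34.5% in the KO embryos. The separation thus leans on single WT nuclei, and the sum without them was not computed. The listed inhibitory neuron genes, in contrast, summed to 86.8 to 171 CPM in WT and 71.5 to 543 CPM in KO members, and the excitatory neuron genes to 322 to 1235 CPM and 156 to 778 CPM, both with overlap. The part of neuronal RNA in these differences was not tested. Myt1l in members was at 149, 210 and 198 CPM in WT and 198, 39.0 and 76.4 CPM in KO (-0.94 ± 0.51). The KO embryos alone did not meet the count filter for Myt1l, so no p is given.

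In Het members Mrc1 stood at 397, 521 and 744 CPM in WT and at 1868, 1325 and 1141 CPM in Het, without overlap, while KO members had 1860, 663 and 573 CPM. As a rule marker, Mrc1 helped to choose the members in every genotype, so these levels are a description and no test is given. Colec12 followed a like pattern, with 24.8, 64.0 and 33.1 CPM in WT, 478, 301 and 104 CPM in Het and 564, 182 and 63.7 CPM in KO members (Het 2.61 ± 0.80). No WT embryo met the count filter for Colec12, so its values are a description and no p is given. Among KO embryos Mrc1, F13a1 and Colec12 were highest in KO 1, the embryo with the largest share of vascular nuclei (0.503%), and Colec12 in KO 2 was also above every WT embryo.

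Lsamp, a neuronal adhesion protein, did not pass (409, 329 and 132 CPM in WT against 1489, 1163 and 455 CPM in Het members, 1.87 ± 0.42, edgeR adjusted p = 0.9997), and 22.9% of its counts came from 1 nucleus. This changed with the setting, as Lsamp was called with the replicate block (edgeR adjusted p = 0.0369) and without Het 3 (edgeR adjusted p = 0.00985). Aspm, a spindle protein of dividing cells, stood at 174, 110 and 182 CPM in WT and at 14.05, 22.3 and 57.6 CPM in Het members (-2.15 ± 0.64). No Het embryo met the count filter for Aspm, so its values are a description and no p is given. Aspm was 1 of 12 proliferation genes tested, of which 11 were lower in Het, 3 at an unadjusted p under 0.05 and 0 called, with a median of -0.44. The summed proliferation list, at 4639, 2762 and 5293 CPM in WT and 1903, 3109 and 4056 CPM in Het members, overlapped between the genotypes. Fam193b (-1.38 ± 0.42) and Cacna2d1 (-1.51 ± 0.49) were the other genes lower in Het with the smallest p. Neither gene met the count filter within the Het embryos alone, so no p is given. Without upper limits on depth the log2 differences were 0.68 for Lsamp, -0.96 for Aspm and -0.68 for Cacna2d1.

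**Figure D5:**
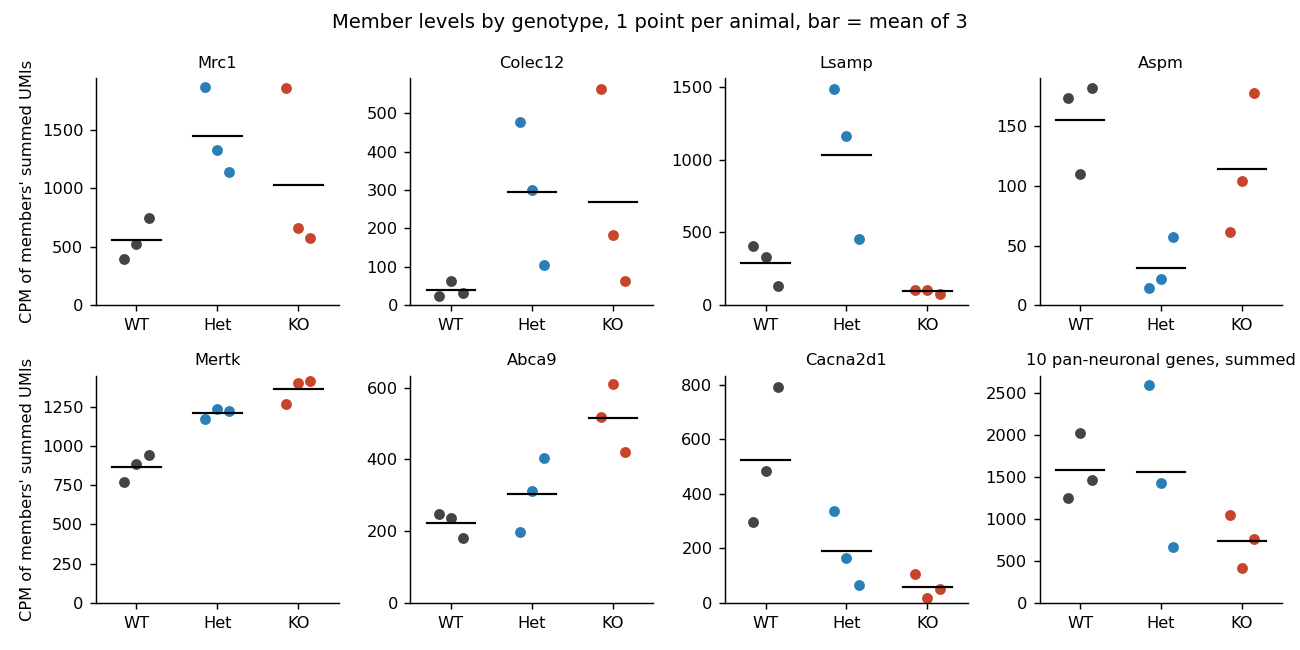
CPM of the members' summed UMIs for 7 genes and for the sum of 10 pan-neuronal genes, 1 point per embryo and a bar at the mean of 3. Mertk lies at 769 to 942 CPM in WT and above 1175 CPM in Het and KO, Mrc1 is high in Het and in KO 1, Colec12 is above WT in Het, KO 1 and KO 2, and Cacna2d1 and the pan-neuronal sum are low in KO. In WT 1 and WT 3, 1 nucleus gave 53.5% and 54.9% of the pan-neuronal counts. No gene passed the test across all genes.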

How the data were processed

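Forebrain nuclei of 9 E14 embryos were profiled by the authors, who mapped reads to mm10 with the kit maker's pipeline and called nuclei. The deposited matrices hold estimated counts (expected counts) of UMIs for 55335 genes, and 6.70 to 8.71% of entries per library were not whole. The annotation and strand setting were not given in the sources used here. Overlapping genes are uncertain for that reason. Among the rule markers Cx3cr1 overlaps 9 annotated genes in GENCODE vM21, Csf1r and F13a1 2 each, Mrc1 and Ptprc 1 each, and C1qa and C1qb 0. The part of these overlaps in the counts was not tested. Per the labels, Seurat 4.3.0, DESeq2 1.38.3 and Scanpy 1.12.0 were used.

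Here 201952 of 261143 barcodes (77.3%) passed the limits on UMIs, genes and mitochondrial UMIs, 15312 to 27028 per embryo, with 45006899 to 77951496 UMIs. Doublets were scored with Scrublet (scanpy 1.11.5), and the top 5% of each library were left out only as an alternative, which removed no member. Members and gene lists were chosen with earlier results of these data known. Runs were summed per embryo, counts were rounded after summing, and edgeR 4.0.16 (filterByExpr, TMM, quasi-likelihood F-test, two-sided) was fitted over all 9 embryos by genotype. Calls needed a Benjamini-Hochberg adjusted p under 0.05 and a log2 fold change beyond 0.2. Rule genes were left out of calls between kinds of members. The planned split, with nuclei holding both Cx3cr1 and Mrc1 or F13a1 left out, could not be fitted, since only 2 embryos had at least 3 nuclei of each kind, and the split that keeps them is reported in its place. Same-numbered embryos are not paired by the labels. Shares were tested by exact permutation with scipy 1.17.1.

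Genes were named by a fixed rule. For members against the rest these were the 15 largest folds at 100 CPM or more and the highest listed genes, and for genotypes the 3 smallest p in each direction at 50 CPM or more. Between kinds of members they were the called genes and the tested microglia core and border macrophage genes. Other listed genes, such as Spi1, Tmem119, Sall1, Lyve1, Ms4a7, Cd163, Pf4 and Smc4, were added after their values were seen. Some genes that the rule names are not reported here. Positions come from GENCODE vM21 (GRCm38), matched by versioned identifier, which Rapgef6 did not match. Scripts were tested on simulated counts, and alternatives comprised scaling, filters, DESeq2 1.42.0, thinning, doublets, runs and leaving out each embryo.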

Additional observations from a re-analysis of the deposited data

How the results depend on the processing

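With 3 against 3 embryos no share could reach an exact permutation p below 0.1, and each embryo held 18 to 40 members. Deviations of same-numbered embryos correlated between -0.20 and 0.21 and those of other pairs between -0.23 and 0.30. Values this noisy cannot settle whether same-numbered embryos belong together, and no pairing was used in the main fit. With the replicate block 0 genes were called for KO and 1 for Het (Lsamp). Without a filter on low counts, 44 of 17729 genes were called for KO and 18 of 17729 for Het. Between the kinds of members it was 18 of 17499. A gene with a count in only 1 embryo could enter in this setting, so these counts support nothing. In KO against WT, Cacna2d1 alone was called (1 gene) in the fit of only the 6 embryos compared, with DESeq2, with at least 3 markers and without Het 3, and leaving out 1 embryo gave 0 to 1 genes. In Het against WT that range was 0 to 2, with Lsamp and Lingo2 called without Het 3. The calls of Cacna2d1 support nothing, since no KO embryo met the count filter in the main fit.

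Between the kinds of members, leaving out 1 embryo gave 0 to 8 calls. At least 3 markers gave 18, a limit of 0.9 on the ratio of log(genes) to log(UMIs) gave 8, and no upper limits or run 2 alone gave 0. Leaving out 1 embryo moved the KO difference in share from -0.000532 to 0.0366 percentage points, the KO difference in the type without Cx3cr1 from -1.85 to 6.48 points and the Het difference in it from -0.512 to 6.10 points. Run 1 alone, with 3 to 14 members per embryo, reversed the differences in the share with Mrc1 or F13a1, to -3.39 points for KO and -8.93 for Het. Without upper limits the log2 differences of Siglech and Fcrls turned to -0.0687 and -0.0483, and leaving out 1 embryo gave ranges of -0.341 to 0.0252 for Itgam, -0.224 to 0.103 for P2ry12 and -0.259 to 0.111 for Entpd1. The cause of these changes was not tested. Alternatives with genes counted from 1 UMI, and those on the share with Mrc1 or F13a1, were chosen after seeing the data. Run 1 alone was not run for genes, since only 3 embryos had at least 10 members.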
